A study of Caenorhabditis elegans with 2 samples.

Results

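The 550 regions described here were the binding sites of NFYB-1 that lay between genes and away from protein-coding gene starts, out of 3879 nuclear regions in the reproducible list made from both replicates (14.2%). NFYB-1 binding was read out by ChIP-seq, which precipitates a protein with its bound DNA and sequences that DNA. The worms were whole young adult Caenorhabditis elegans of strain RW12190, whose own nfyb-1 gene carries a CRISPR insertion of TY1, EGFP and 3xFLAG. Per the labels, the worms were bleached, starved as first-stage larvae, harvested at 65 hours and precipitated with an antibody against GFP, in 2 biological replicates of 1 group. No untagged strain or second condition was analysed here, and whole worms do not show in which tissue a site was bound. A member's summit, the base of highest signal, lay outside every window from 500 bp upstream to 200 bp downstream of a protein-coding transcript start and more than 100 bp from any tRNA gene. It also lay outside every annotated gene span and not between 500 and 1500 bp upstream of a protein-coding start. The rule used position alone and no measured signal, but leaving out genes, promoters and tRNA genes can itself shape sequence content.

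NF-Y is a transcription factor of 3 subunits, in which NF-YB and NF-YC form a histone-like pair and NF-YA reads the CCAAT box. The complex is known mainly from promoters, where its box usually sits a short way upstream of the start. Much of the worm genome between genes is short, and some of what lies there is repeats, small noncoding RNA genes and, on the X chromosome, the recruitment sites of the dosage compensation complex.

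The strongest members came from 2 sequence families, whose summit windows are shown because they led the list and held no extended NF-Y box. Each line gives the 121 bases around a summit on ce11, read on the strand that aligns it with its relatives. The first 3 lines are copies of family A and the last 3 of family B. Capitals mark the longest stretch that the 3 printed copies of a family share exactly, 12 bases in family A and 60 in family B.
chrIV:4725547-4725667 plus strand: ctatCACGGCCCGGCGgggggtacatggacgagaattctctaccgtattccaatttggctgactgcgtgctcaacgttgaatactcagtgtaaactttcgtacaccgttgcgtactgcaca
chrII:4047999-4048119 plus strand: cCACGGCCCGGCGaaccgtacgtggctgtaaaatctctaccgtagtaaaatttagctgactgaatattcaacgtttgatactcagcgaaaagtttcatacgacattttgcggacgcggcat
chrIV:9196374-9196494 minus strand: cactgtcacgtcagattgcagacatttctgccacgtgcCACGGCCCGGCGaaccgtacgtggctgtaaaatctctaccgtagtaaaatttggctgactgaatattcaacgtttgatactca
chrIV:4727977-4728097 plus strand: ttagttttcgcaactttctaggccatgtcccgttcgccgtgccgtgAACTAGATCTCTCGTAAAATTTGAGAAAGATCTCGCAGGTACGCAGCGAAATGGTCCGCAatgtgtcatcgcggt
chrIV:4720659-4720779 minus strand: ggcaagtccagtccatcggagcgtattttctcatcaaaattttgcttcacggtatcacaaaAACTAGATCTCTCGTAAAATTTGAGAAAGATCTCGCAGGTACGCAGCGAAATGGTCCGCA
chrIV:4184890-4185010 minus strand: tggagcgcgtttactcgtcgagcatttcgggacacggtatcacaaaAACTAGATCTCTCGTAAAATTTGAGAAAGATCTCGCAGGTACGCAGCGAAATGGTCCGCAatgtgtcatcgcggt

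The next set shows members with several extended boxes, the sequence most specific to NF-Y. Capitals mark each extended box, defined as CCAAT preceded by a pair of purines and followed by C or G and then a purine, on either strand. A box on the opposite strand appears as its reverse complement, with ATTGG. All 3 windows were copies of one dispersed sequence, family D.
chrII:13855528-13855648 plus strand: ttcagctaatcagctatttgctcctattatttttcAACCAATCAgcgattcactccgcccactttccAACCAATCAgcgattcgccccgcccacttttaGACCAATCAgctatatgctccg
chrII:3930600-3930720 plus strand: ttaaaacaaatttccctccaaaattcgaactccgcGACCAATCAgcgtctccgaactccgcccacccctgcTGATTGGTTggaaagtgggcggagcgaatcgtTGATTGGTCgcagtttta
chrV:5213837-5213957 plus strand: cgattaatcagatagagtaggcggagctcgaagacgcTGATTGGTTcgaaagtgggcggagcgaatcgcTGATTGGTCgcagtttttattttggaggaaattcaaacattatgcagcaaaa

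The 3 strongest members with the octamer GCGCAGGG are shown because each of the members that held it lay on the X chromosome. Capitals mark the octamer or its reverse complement, CCCTGCGC.
chrX:11094134-11094254 plus strand: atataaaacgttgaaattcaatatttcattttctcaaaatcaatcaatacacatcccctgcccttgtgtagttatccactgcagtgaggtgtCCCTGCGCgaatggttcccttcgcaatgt
chrX:4209233-4209353 plus strand: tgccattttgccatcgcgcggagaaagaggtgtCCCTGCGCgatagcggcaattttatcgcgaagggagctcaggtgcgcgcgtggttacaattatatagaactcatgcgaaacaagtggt
chrX:8036386-8036506 plus strand: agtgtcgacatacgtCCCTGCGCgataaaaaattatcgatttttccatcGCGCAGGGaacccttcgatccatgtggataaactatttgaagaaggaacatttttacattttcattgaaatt

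The last pair shows autosomal members with the 9-base word GAGACGCAG, shown because more members held it than held an extended box. Capitals mark the word or its reverse complement.
chrIV:2219553-2219673 plus strand: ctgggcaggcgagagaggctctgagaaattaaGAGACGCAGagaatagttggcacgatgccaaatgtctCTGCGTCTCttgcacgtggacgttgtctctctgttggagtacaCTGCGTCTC
chrII:12102509-12102629 plus strand: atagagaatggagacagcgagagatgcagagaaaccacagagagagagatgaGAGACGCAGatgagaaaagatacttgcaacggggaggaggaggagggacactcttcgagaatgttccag

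Among the 20 members of highest signal, 9 belonged to families A and B, 8 lay on the X chromosome and 1 held an extended box. Signal is the peak caller's own value per region, on a scale the sources do not state. Most main-list signals are larger than those of a single replicate. Some members of low main-list signal go the other way, as at III:502763-503138 (50.9 against 128 and 138). All 20 overlapped the thresholded list of each replicate, with replicate means from 256 to 732. Replicate 2 was higher than replicate 1 at each of them, and at 403 of the 540 members with a signal in both ranked lists. On the log2 scale, replicate 2 exceeded replicate 1 by a median of 0.27 at members and 0.24 at the other nuclear summits.

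Family A had 6 members, on chromosomes II and IV, with main-list signals from 486 to 1457. The strongest, IV:4725447-4725749, lay 294 bp past the end of K08F11.1 and 153 bp upstream of a noncoding RNA gene. Its signal was 665 in replicate 1 and 798 in replicate 2 (732 ± 94.6, SD, n = 2). The copy at II:4047914-4048201 lay 2563 bp upstream of K07D4.2 and reached 532 and 576 (554 ± 31.0, SD, n = 2). A copy at IV:9196288-9196557 lay 358 bp past the end of C46C2.7 and 3669 bp upstream of wnk-1, which encodes a protein kinase of ion balance, and reached 357 and 452 (405 ± 67.2, SD, n = 2). The others among the 20 were IV:16845472-16845732, between Y116A8A.150 and map-2 (338 and 401), and IV:3313396-3313655, 350 bp past the end of zip-11, which encodes a bZIP transcription factor (308 and 385). Replicate 2 was the higher in all 5 of these copies, and the strongest copy exceeded the others in both replicates.

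Family B had 5 members, on chromosomes I, IV and V, with main-list signals from 307 to 1314. The strongest, IV:4727891-4728197, reached 625 and 707 in replicates 1 and 2 (666 ± 57.6, SD, n = 2). A copy at IV:4720580-4720813 reached 325 and 348 (336 ± 15.7, SD, n = 2). Both flanked the strongest family A copy, whose summit lay 4888 bp from one and 2430 bp from the other, so 3 of the 12 strongest members fell in the gap on either side of K08F11.1. Copies of both families also lay close elsewhere, with centres 2147 bp apart at I:22377 and 2021 bp at V:18934339. At neither place did the family B copy hold a main summit. Most family A copies lay much further from any family B copy. The remaining copies among the 20 were I:2639697-2639955, 399 bp past the end of F40E3.3 (356 and 399), and IV:4184835-4185066, 600 bp past the end of K08D10.11 (271 and 312).

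Members of families A and B all overlapped both replicates' lists (11 of 11), with a median main-list signal of 742 against 125 for all members. CCAAT was present in 1 of the 11, and the extended box in none. The genome held 24 copies of family A, and 13 had a main summit: 6 among these members, 4 in introns, 2 in the class between 500 and 1500 bp upstream of a start and 1 in a promoter. Of 32 copies of family B, 7 had a main summit, 5 among these members and 2 in introns. Copies with a summit lay in several kinds of position, and many copies, some of them short matches, carried no main summit within the match. In family A, copies with a summit were 128 to 246 bp long and those without 61 to 164 bp. In family B these lengths were 134 to 221 bp and 77 to 132 bp. A copy that held a member covered at least the member's own window by construction, and the part of length was not tested. From 41.9% to 82.0% of the 30-base stretches in a family A window, and 27.9% to 83.7% in a family B window, occurred elsewhere in the genome. The part of this repetition in the signals was not tested. The families were found after the signals were seen, so these values are descriptions.

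Most members (68.4%) had windows with a single copy in the genome. The median main-list signal of the 550 was 125, with quartiles at 104 and 181 and extremes of 2.82 and 1457. Promoter summits had a median of 133, summits between 500 and 1500 bp upstream 126, introns 118, exons 110 and tRNA genes 166. The quartile ranges of members (104 to 181) and promoters (108 to 195) overlapped, while the highest signal was 18739 in promoters, 4946 in exons and 587 at tRNA genes. The strongest member ranked 13 among all nuclear summits. Of the 30 members with a signal under 50, 29 overlapped another main region of higher signal. The 550 summits came from 548 distinct regions, and 79 overlapped another main region. Where they do, the replicate signals given for a member can be those of a shared replicate region, as at III:502763-503138, whose 128 and 138 were also those of its stronger neighbour.

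**Figure D1:**
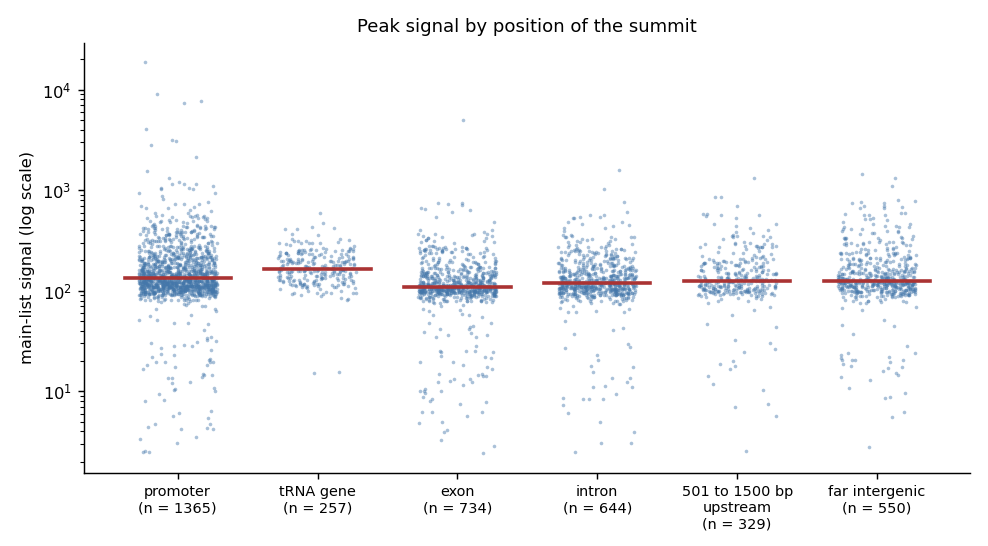
Main-list signal (log scale) of each nuclear summit by position class, 1 point per summit, with the class median as a red bar. Far intergenic summits (median 125) overlap every other class, and the highest signals of all lie in promoters.

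Support in the replicates did not differ detectably from that of other sites. Of the 550 members, 178 (32.4%, exact 95% interval 28.5 to 36.5) overlapped the thresholded lists of both replicates, against 33% of all nuclear summits. The other nuclear summits had 1102 of 3329 (33.1%, Fisher's exact test, adjusted p = 0.792). Promoter summits had 37.4%, and the difference did not pass after adjustment over the 12 comparisons made (adjusted Fisher's exact p = 0.120). With the 98 members near noncoding gene starts left out, the share was 29.9% and the contrast with promoters passed (adjusted Fisher's exact p = 0.0153). Promoter summits near such starts were not left out, so this contrast filters 1 side only. The list of replicate 1 held 222 members and that of replicate 2 held 297, with 44 in replicate 1 alone, 119 in replicate 2 alone and 209 (38%) in neither. These tests treat regions as independent.

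**Figure D2:**
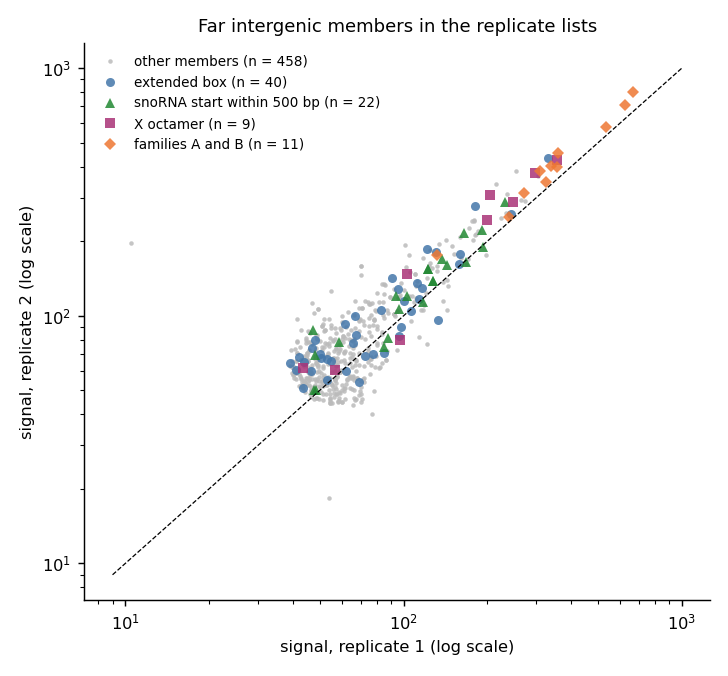
Signal of the 540 members found in both replicates' ranked lists, replicate 1 against replicate 2 on log scales, with the line of equality dashed and colours for the features described here. Families A and B, the X octamer members and the snoRNA members spread along the line toward the upper right, and most other members crowd below 100 on both axes.

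The extended NF-Y box was found at 40 of the 550 members (7.27%, exact 95% interval 5.25 to 9.77), against 8.38% of all nuclear summits. In windows of the same width centred 500 bp to either side it was found at 6 and 6 of the 550 (1.09% each), below the summits on both sides (exact McNemar test, adjusted p = 9.31e-07 for each). Against flanks centred 1000 bp away, the excess was 3.82 percentage points and did not pass on both sides (larger adjusted exact McNemar p = 0.0838). The other nuclear summits had 8.56% (adjusted Fisher's exact p = 0.481) and promoter summits 4.62% (adjusted Fisher's exact p = 0.0989). The contrast with promoters passed in 3 of 11 alternatives, with the lowest adjusted Fisher's exact p at 0.0106. This lowest value came with windows of 50 bp. The others left out members that overlap another main region or lie near noncoding starts, without filtering promoters alike. Intronic summits held the box in 141 of 644 cases (21.9%), more than members did (adjusted Fisher's exact p = 9.25e-12). Family D had 70 copies with a summit in introns and 12 among members, and the test counted such related summits as independent. By comparison, 2.14% of windows of the same width at 29773 protein-coding transcript starts held it.

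The bare CCAAT pentamer was not called higher at members than in their flanks. It lay within 100 bp of the summit in 193 members (35.1%, exact 95% interval 31.1 to 39.2), against 36.9% of all nuclear summits, 34.9% of left flanks and 30.2% of right flanks (exact McNemar test, adjusted p = 1 and 0.117). The other nuclear summits had 37.2% (adjusted Fisher's exact p = 0.481). Intronic summits had 47.5%, above members (adjusted Fisher's exact p = 0.000101), a call that ended with windows of 200 bp (adjusted Fisher's exact p = 0.160).

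Boxes sat close to the summit and often came in groups. The 40 members held 72 extended boxes, 1 box in 19 members, 2 in 12, 3 in 7 and 4 in 2. Their median distance from the summit was 21 bp, and 60 of the 72 (83.3%) lay within 50 bp. Between neighbouring boxes of one member the median spacing was 35.5 bp, with 10 of 32 pairs at 32 bp, 7 at 39 bp and 4 at 36 bp. All the pairs at 32 and 36 bp lay in the 12 box members that were copies of family D, and all 7 at 39 bp lay in other members. Members with 2 or more boxes had a median main-list signal of 193 and overlapped both replicates' lists in 13 of 21 cases. Those with 1 box had a median of 130 and such overlap in 8 of 19 cases.

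**Figure D3:**
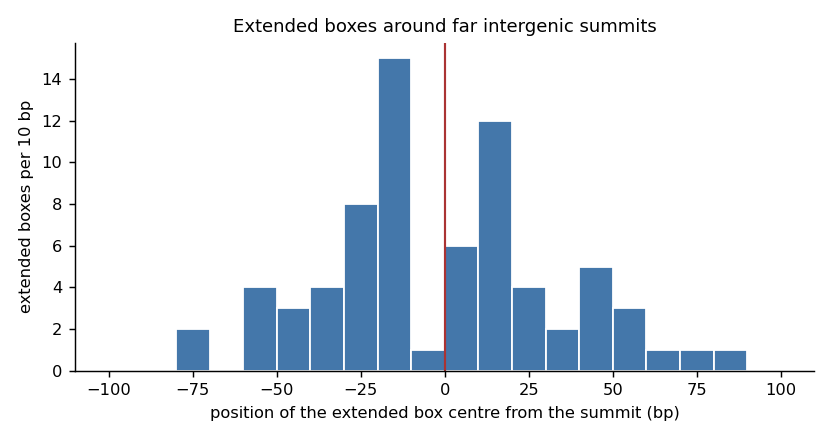
Position of the 72 extended boxes relative to their summits, in bins of 10 bp, with the summit as a red line. Most boxes lie within 50 bp of the summit on either side.

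The strongest box member was I:5388347-5388600, with 3 boxes, 3959 bp upstream of tent-5, which encodes a cytoplasmic poly(A) polymerase. Its signal was 330 in replicate 1 and 434 in replicate 2 (382 ± 73.5, SD, n = 2). Next came II:13855472-13855729, with 4 boxes, between the converging genes F08G2.8 and cup-14 and 197 bp past the end of the latter (243 and 257). II:3930550-3930764, with 3 boxes, lay 2667 bp upstream of plpp-1.1, which encodes a phospholipid phosphatase (181 and 278). The first was above the other 2 in both replicates, and the ranges of the latter pair overlapped. The other 7 of the 10 strongest had main-list signals from 239 to 332 and lay nearest to ZC247.1, feh-1, ttc-37, Y41D4B.15, F53C3.1, lelo-2 and tsr-2.

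Family D linked box members to sites elsewhere. All 12 of its members held the extended box, and 8 overlapped both replicates' lists, with main-list signals from 101 to 515. The genome held 473 copies, 322 of them centred in introns and 51 at bases that met the membership rule. Of the 473, 105 (22.2%) had a main summit, 70 of them in introns and 12 among these members. The median member shared 4.94% of its 30-base stretches exactly with another place, so copies had diverged. The longer word CCAATCAG was found in 29 members, 27 of them among the 40 with an extended box, and CTCCGCCC in 25. Flanks held the first in 3 and 0 windows and the second in 3 and 2. The other nuclear summits held the first in 5.59% of cases, against 5.27% of members. They held the second in 5.11%, against 4.55% of members.

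Boxes were scarce among members on the X chromosome, at 2 of 120 (1.67%) against 38 of 430 on the autosomes (8.84%). The other summits of X held them in 4.45% of cases and those of the autosomes in 9.28%. CCAAT itself was present in 36.7% of X members and 34.7% of autosomal ones. These splits were made after the values were seen and were not tested.

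Some X members held another sequence. GCGCAGGG, the core of a motif known from the recruitment sites of the worm dosage compensation complex, was found at 9 of 120 X members (7.5%) and at 0 of 430 autosomal members. Of the 240 flanks of X members 1 held it, as did 8 of 494 other X summits (1.62%) and 6 of 2835 other autosomal summits (0.212%). Windows at protein-coding starts held it in 0.0739% of cases. Of the 9 members, 6 were among the 100 strongest, and 7 overlapped both replicates' lists. Most strong X members lacked it, as 18 of the 24 X members among the 100 strongest had no octamer. No X octamer member held an extended box.

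The strongest was X:11094008-11094350, between the ends of W04G3.11 and W02H3.3, with 355 in replicate 1 and 426 in replicate 2 (390 ± 50.4, SD, n = 2). X:4209133-4209421 lay 1278 bp past the end of hpk-1, which encodes a homeodomain-interacting protein kinase (298 and 378). A region at X:8036275-8036565 had 2 octamers (205 and 308). Its summit lay 311 bp downstream of the start of a tRNA gene. The nearest protein-coding start, 4867 bp away, was that of xol-1, the switch gene of sex determination and dosage compensation. X:806585-806793, 321 bp past the end of F25E2.2, held both the octamer and GAGACGCAG (247 and 288). The fifth, X:16682005-16682227, reached 199 and 242, and the remaining 4 had main-list signals from 112 to 254. The 111 X members without the octamer had a median main-list signal of 123, close to the 125 of autosomal members.

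The other X regions among the 20 strongest were X:13700711-13700995, 5071 bp past the end of adm-2 (305 and 366), and X:16056416-16056780, between the ends of T27A8.7 and T27A8.2 (273 and 290). X:11937416-11937665 lay 592 bp past the end of F55G7.5 (264 and 293) and X:9465744-9465983 lay 1138 bp past the end of ZK899.6 (234 and 311). None of these 4 held the octamer or an extended box. The 2 regions still unnamed among the 20 were III:4281998-4282486, 1980 bp upstream of sup-26, which encodes an RNA-binding protein (252 and 383), and IV:15570866-15571152, 6591 bp upstream of Y105C5A.1 (214 and 340).

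The word GAGACGCAG was found at 50 members (9.09%), against 7 windows in each set of flanks (1.27%) and 1.31% of windows at protein-coding starts. The other nuclear summits held it in 7.39% of cases, a difference that was not tested. Members with it had a median main-list signal of 165, and 21 of the 50 overlapped both replicates' lists. Only 2 of them held an extended box. After X:806585-806793, the strongest lay nearest to C30E1.4 (180 and 212), T04C4.3 (184 and 219), hif-1, the hypoxia-inducible factor gene (159 and 208), and nlp-40, a neuropeptide gene of the intestine (170 and 170). Other words chosen the same way were GAGAGAGA and CGCGC, and their differences were not tested. GAGAGAGA was found in 53 members (9.64%), against 16 and 13 flanks and 6.01% of the other nuclear summits. CGCGC was found in 115 members (20.9%), against 35 and 36 flanks and 26.0% of the other nuclear summits. The B box of RNA polymerase III genes was found in 10 members (1.82%) against 6.10% of the other summits, which include those at tRNA genes.

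**Figure D4:**
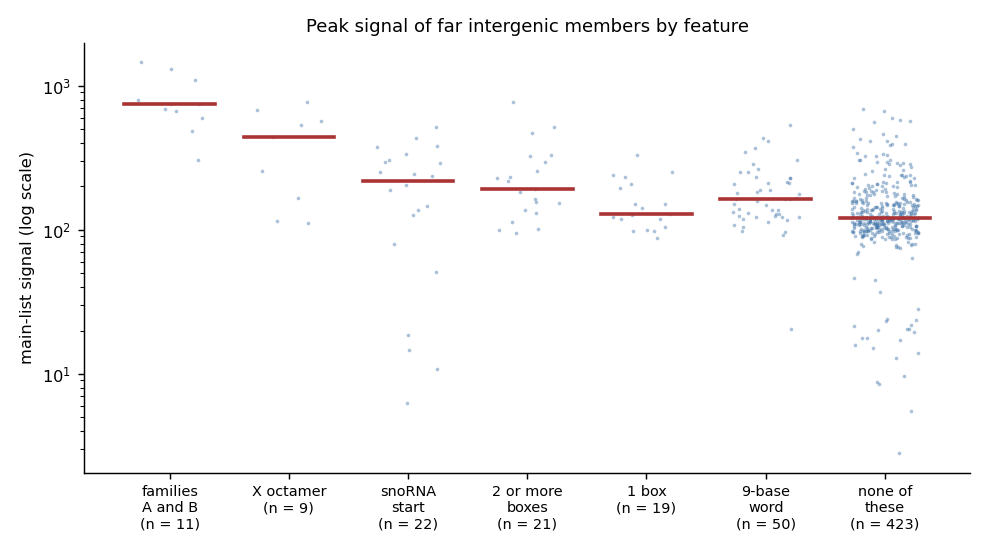
Main-list signal (log scale) of members by feature, 1 point per member, with medians as red bars; a member can appear under several features, and the 9-base word is GAGACGCAG. Families A and B (median 742) and the X octamer (441) stand highest, followed by snoRNA starts (220) and members with several boxes (193).

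Small nucleolar RNA (snoRNA) genes, whose RNAs guide chemical modification of ribosomal and other RNAs, had members beside them at a higher share than the space they take up, a comparison that carries no test. Within 500 bp of a snoRNA start lay 22 members (4%), at 20 distinct genes, while such positions made up 0.268% of the bases that met the membership rule. Of these 22 members, 19 lay upstream of the nearest snoRNA start, and 16 were within 100 bp of it and upstream. The rule bars gene spans, so bases just downstream of a snoRNA start could not hold a member. The excess on the upstream side was thus partly fixed in advance. The median distance of the 22 from the snoRNA start was 47 bp. Both replicates' lists held 18 of the 22, and the median main-list signal was 220. Of the 22, 0 held an extended box.

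The strongest was II:11960704-11960961, 56 bp upstream of W03C9.9, with 231 in replicate 1 and 288 in replicate 2 (260 ± 40.2, SD, n = 2). I:2514269-2514455 lay 40 bp upstream of Y23H5B.10 (191 and 221). Then came regions 44 bp upstream of T19B4.8 (192 and 190), 18 bp upstream of T26A8.6 (165 and 215) and 29 bp upstream of T06C12.16 (168 and 165). Signals fell gradually through W01C9.6, F32E10.10, C53B7.8, F30H5.4, C46C2.8 and H09I01.2, at main-list values from 307 to 235.2. The 3 members downstream of a snoRNA start, with 50.9, 10.7 and 6.29, were low in the main list. So were the upstream members at C26C6.13 (63 bp, 14.6), C17H12.36 (327 bp, 18.7) and T28B8.11 (181 bp, 79.3). In the replicate lists the signals were 85.1 and 74.5 at C26C6.13 and 87.6 and 81.5 at C17H12.36. Of the 30 members under 50 in the main list, 29 overlapped another main region of higher signal. The downstream members at F30H5.4 and C53B7.8 shared their replicate regions with the stronger member upstream of the same gene. Both count among the 18 snoRNA members held by both replicates' lists.

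Over all noncoding genes the share was near that of the space available. In all, 98 members (17.8%) lay within 500 bp of a noncoding gene start, and 17.0% of the bases that met the rule did so. Genes annotated only as ncRNA had 60 members (10.9% against 7.29% of those bases) and piRNA genes, which give the germline's 21U small RNAs, had 19 (3.45% against 8.88%). MicroRNA genes had 8 members (1.45% against 0.368%), with the strongest near mir-45 (112 and 138) and mir-80 (92.04 and 129). One region, II:5543437-5544073, lay 217 bp downstream of the start of sls-2.2, a spliced leader 2 RNA gene (168 and 161). Long intergenic RNA genes had 3 members, led by those near linc-103 (69.4 and 54.2) and linc-54 (62.0 and 53.2). Transfer RNA genes had 3, all on X and beyond the 100 bp limit of the rule. They were led by X:8036275-8036565, 311 bp from a tRNA start, and X:12661192-12661567, 216 bp from one. Their main-list signals were 568 and 20.4.

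Members were dense past the ends of genes. Of the 550, 207 (37.6%) lay within 500 bp past the end of a protein-coding gene, and 15.3% of the bases that met the rule did so. Within 200 bp the shares were 19.5% and 7.41%. Gaps between converging genes held 161 members, 49.7 per Mb of bases that met the rule, against 29.6 per Mb between genes in tandem and 18.5 per Mb between diverging genes. Their both-list shares were 36.0% in convergent gaps, 33.9% in tandem ones and 22% in divergent ones. The rule removes the bases near starts, so eligible positions in divergent gaps lie in longer gaps by construction. These densities carry no test, since eligible bases are not independent units.

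**Figure D5:**
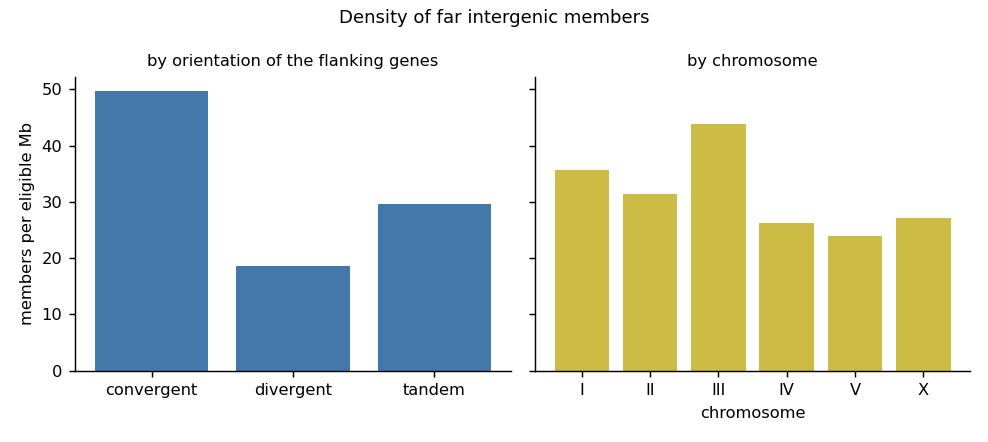
Members per Mb of bases that met the membership rule, by orientation of the flanking protein-coding genes (left) and by chromosome (right); each bar is a single count over a length, with no error bar. Convergent gaps stand highest at 49.7 and chromosome III leads the chromosomes at 43.8, as it does for all nuclear summits over its whole length (56.8 per Mb).

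By chromosome, density ran from 23.9 per Mb on V and 26.2 on IV through 27.1 on X, 31.4 on II and 35.7 on I to 43.8 on III, with 29.9 over the genome. Counts were 80, 100, 120, 81, 76 and 93 in the same order. Over all nuclear summits III also led, at 56.8 per Mb of its length against 38.7 over the genome, and members were 11.9% of its summits, against 19.5% on X and 14.2% overall. X held the largest share of bases that met the rule, 24.98% of its length against 18.4% of the genome. Along the chromosomes, density was 31.2, 31.3 and 27.5 per Mb in the left, middle and right parts of equal length.

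Summits were richer in GC than their surroundings and less often in masked repeats. The median GC content of the 201-bp summit windows was 42.8%, with quartiles at 36.8% and 48.3%, against 35.1% in the flanks, and the median difference was 7.21 percentage points. The summit base lay in sequence masked as repeat in the RefSeq assembly at 141 members (25.6%), against 39.5% and 38.2% of left and right flank centres (exact McNemar test, adjusted p = 1.53e-06 and 9.02e-06). At the same time 174 members had at least 2 copies of their window in the genome, and 63 fell into 10 families of 3 or more members. Family C, a tandem repeat, had 12 members with main-list signals from 96.0 to 445 and held paired GAA and TTC blocks, the unit of heat shock factor sites, in all 12. Of its 395 genome copies 17 carried a main summit, and 6 of the 12 members overlapped both replicates' lists. Over all members, GAANNTTC was found in 12%, against 16.4% and 14.4% of flanks.

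The distance from a member to the nearest protein-coding start had a median of 2560 bp and ran from 461 to 18834 bp. The nearest distances can fall under 1500 bp because the rule applies the longer limit only upstream of a start. Gaps between the flanking genes had a median of 5682 bp. At the limit itself, the 3 members just inside lay 1504, 1505 and 1508 bp upstream of a start, with main-list signals of 288, 20.3 and 104. The 3 summits just outside lay 1500, 1500 and 1497 bp upstream and had signals of 121, 101 and 30.04.

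The genes whose starts lay nearest to members were of many kinds. Nuclear hormone receptor genes, a large family of ligand-regulated transcription factors in worms, were nearest at 19 members (3.45%, 16 genes), led by nhr-88, and made up 1.35% of protein-coding genes. Chemoreceptor genes were nearest at 11 members (2%) and made up 6.47% of genes. Ribosomal protein genes were nearest at 4 members (0.727%, against 0.391% of genes). Neuropeptide genes were nearest at 4 (0.727% against 0.701%), namely nlp-40, ins-13, flp-9 and flp-23. Collagen genes were nearest at 3 (0.545% against 0.781%) and F-box genes at 3 (0.545% against 1.61%). The Hox gene egl-5, the T-box gene tbx-41, the basic helix-loop-helix genes hlh-29 and hlh-30 and the chaperone genes hsp-1 and hsp-25 were each nearest to 1 member, and no histone gene was nearest to any. The homeobox, T-box, basic helix-loop-helix, chaperone and histone lists made up 0.411%, 0.100%, 0.125%, 0.325% and 0.360% of genes. The lists are counts by gene symbol, genes with long gaps around them have more room for members, and no share was tested.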

How the data were processed

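Per the labels and the deposited description files, the authors placed regions on ce11 and ranked them by the irreproducible discovery rate (IDR); neither names the aligner or the caller. The deposited score is the scaled IDR (lowest in the main list 830), the deposited signal is the caller's value per region on an unstated scale, and the deposited −log10 IDR served only for the stricter alternative. The 4 columns of per-sample values inside the ranked lists of both replicates were not used. Read depth is unknown, so intervals cover counting error only. Fragments were 200 to 800 bp per the labels.

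The conservative thresholded list (3890 regions) was the main list, and 11 mitochondrial regions were left out. Its signals and those of the replicates' lists are on different scales. Positions are 1-based, with genes from Ensembl 115 (WBcel235, the assembly ce11) and sequence from the RefSeq copy of the same assembly. Distances from a region to a gene are those of its summit. Windows reached 100 bp either side of a summit (201 bp), and flanks were centred 500 bp away. A member was supported where it overlapped a thresholded region of each replicate. Replicate signals are those of the overlapping region with the nearest summit in each ranked list, and SDs are of unscaled signals. Shares were compared by Fisher's exact test (12 tests) and exact McNemar tests (6 tests), both two-sided, with Benjamini-Hochberg adjustment at 0.05, and a share was called different from the flanks only where both flanks passed. Regions were treated as independent. Intervals are Clopper-Pearson at 95%.

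Copies were found with blastn 2.17.0 (word 11, E-value up to 1e-10, at least 60 bp at 75% identity), and families are linked windows of at least 3 members. A copy had a main summit only where a summit lay within its matched stretch. Python 3.11.15, numpy 2.4.6, scipy 1.17.1, statsmodels 0.14.6 and matplotlib 3.10.9 were used. Class assignment and the McNemar tests were tested on simulated data. The members, lists and tests were chosen with earlier results of these data known, and the families and the words other than CCAAT and the extended box were chosen after their values were seen. Named regions are the 20 members of highest signal found in both replicates' lists, the 10 strongest with an extended box, the 2 strongest per class of noncoding gene and the 3 on each side of the 1500 bp limit. The snoRNA, octamer and word members named beyond these were chosen after their values were seen.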

Additional observations from a re-analysis of the deposited data

How the results depend on the processing

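Of 117 recomputed values, 84 stayed on their side of the threshold with the same direction or within their spread. For shares, the spread was the exact 95% interval. For the GC difference and median signal it was the SD of the 2 single-replicate values around the main value. That SD does not measure the uncertainty of the main value. Leaving out members or moving the upstream limit changes the member share by construction. A new distance does so for the shares near noncoding starts and past gene ends. The cause of the other changes was not tested. The member share (14.2% in the main list) was 17.7% with 1000 bp as the upstream limit, 8.74% with 3000 bp and 16.4% with spans of protein-coding genes only. It was 12.4% without members that overlap another main region and 11.95% without those near a noncoding gene start. With flanks 1000 bp away, the extended box excess was 3.82 points and no longer passed, and CCAAT was -0.0909 points from the flanks. CCAAT against other summits, -2.16 points in the main list, ran from -3.31 points with the other whole-series list to 0.857 points without replicate 2. It was -0.857 points without replicate 1, and no setting passed the threshold.

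The GC difference (7.21 points) was 7.46 with the other whole-series list, 8.46 at IDR 0.001, 7.71 with 1000 bp, 5.47 with 3000 bp, 7.46 with coding spans, 7.71 without overlapping members, 6.97 without members near noncoding starts, 9.90 and 4.11 with windows of 50 and 200 bp, and 6.59 with flanks 1000 bp away. Leaving out a replicate gave 8.08 to 8.21. The share near a noncoding start was 21.4% at IDR 0.001, 22.8% with coding spans, 11.1% within 200 bp, 24.7% within 1000 bp and 21.1% to 21.8% without a replicate. The share past a gene end was 19.5% within 200 bp and 46.7% within 1000 bp. The median signal was 123.1 in the other list, 204 at IDR 0.001, 129.5 without overlapping members, 123.5 without members near noncoding starts, and 87.4 to 88.9 without a replicate, where signals are on the scale of 1 replicate.

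No paired analysis was possible because the replicates belong to 1 group. Only 2 replicates and unknown depth limit how finely weak members can be told from background.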
